A study of Rattus norvegicus with 17 samples.

Results

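Transcripts of 3 secreted proteins that injured tubules are known to make, Lcn2, Clu and Spp1, were followed in kidney RNA from rats after sub-total nephrectomy (SNx). They were taken by name from the gene sheets of the study, and all 3 were among the 23487 genes with deposited counts and among the 15438 genes that passed the filter on low counts. Male Wistar Han rats had part of the right kidney resected and, in a later operation, the left kidney removed, so that only a remnant was left to fail. The study's methods set thresholds of proteinuria and serum creatinine at which SNx rats were killed, so time after surgery was not the same in every rat. The paper states that only a part of the study 2 SNx rats reached a threshold. By its count they were fewer than the 12 SNx libraries. With a separate rat for each library, the 12 therefore include rats that did not reach one, and the labels do not tell which. Of the SNx experiments of the paper, these libraries are from the one it calls study 2. Controls are labelled NoOp, a name kept here, while the paper's methods call the study 2 controls sham. No age is stated for either group. There were 12 SNx and 5 NoOp libraries, each from 1 kidney sample, numbered SNx 1 to SNx 12 and NoOp 1 to NoOp 5. Total counts ran from 19210434 to 30784070 in SNx (median 22709319) and from 30454170 to 43876369 in NoOp (median 32745316). RNA of bulk kidney tissue was sequenced, so fewer cells of a type and less RNA per cell cannot be told apart.

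Lcn2 encodes lipocalin 2 (NGAL), a small protein that binds siderophores and thereby keeps iron from bacteria, and that is filtered, taken back by proximal tubules and also made by injured tubules. Clu encodes clusterin, a secreted chaperone that holds unfolded proteins outside the cell. Spp1 encodes osteopontin, an acidic phosphoprotein of matrix and urine that binds integrins and CD44 and draws in macrophages. All 3 are read in kidney tissue or urine as signs of tubular damage, whereas Slc3a1, a subunit of the cystine transporter of the brush border, marks intact proximal tubules and Col3a1, the chain of type III collagen, marks fibroblasts and scar.

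Lcn2 is a textbook target of NF-kB and C/EBP factors, and the 250 bases before its start and before that of Spp1 are shown because both transcripts rose together. Of the 3 genes, 2 were matched in the table of RefSeq promoters used here (build GRCr8), and the promoter of Clu was not analysed here. The sequence of Lcn2 is chr3:36081781-36082030 and that of Spp1 is chr14:5619805-5620054, both on the minus strand and printed in the direction of the gene. Capitals mark matches on either strand, where N stands for any base. The letters searched for NF-kB were GGGANNNNCC, those for C/EBP factors TTNNGCAA and those for STAT factors TTCNNNGAA. The AP-1 letters were TGANTCA. The TATA box was searched by its own letters, TATAAA.
Lcn2: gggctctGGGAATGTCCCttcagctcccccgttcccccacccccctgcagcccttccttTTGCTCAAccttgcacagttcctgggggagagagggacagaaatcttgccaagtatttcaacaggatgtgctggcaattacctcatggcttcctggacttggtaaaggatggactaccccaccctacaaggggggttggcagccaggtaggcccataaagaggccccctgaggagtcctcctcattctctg
Spp1: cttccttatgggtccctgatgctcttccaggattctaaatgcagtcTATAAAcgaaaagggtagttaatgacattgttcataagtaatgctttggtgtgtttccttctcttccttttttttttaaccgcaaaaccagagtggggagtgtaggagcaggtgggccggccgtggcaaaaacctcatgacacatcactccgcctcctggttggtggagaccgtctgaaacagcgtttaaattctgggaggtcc
Before Lcn2 there were overlapping NF-kB matches, GGGAATGTCC on the strand of the gene from base 243 to base 234 before the start, and a match on the other strand from base 242 to base 233. A C/EBP match on the other strand, read here as TTGCTCAA, lay from base 191 to base 184. Before Spp1 there was a TATA box match from base 204 to base 199 and no match to the other 4. Among 33469 promoters of the same length, 16.4% held the NF-kB letters, 9.22% the C/EBP letters, 7.67% the STAT letters, 6.34% the AP-1 letters and 12.9% the TATA box letters. These are matches of letters, and binding was not measured.

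The first question was whether each transcript differed between SNx and NoOp kidneys. In edgeR's quasi-likelihood test, all 3 were upregulated, against a background of 30.3% of tested genes called higher in SNx, 27.7% called lower and 58.0% called in either direction at FDR < 0.05. Every SNx library lay above every NoOp library for each of them, as it did for 13.5% of tested genes, while 9.60% lay wholly below and 23.1% had no overlap in either direction. Their log2 fold changes (log2 FC) were all above 3, a size reached at that FDR by 1.92% of tested genes.

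Lcn2 (ENSRNOG00000013973, chromosome 3) stood at 2.14, 2.71, 3.24, 3.83 and 2.69 CPM (counts scaled to the size of the library) in NoOp 1 to NoOp 5. In SNx it ran from 30.7 to 208 CPM with a median of 86.8. The groups were far apart, since the lowest SNx library, SNx 11, was 2.98 above the highest NoOp library on the log2 CPM scale. Mean log2 CPM was 6.36 ± 0.92 (SD, n = 12) in SNx and 1.56 ± 0.31 (SD, n = 5) in NoOp, and edgeR gave a log2 FC of 5.06 with a standard error of 0.53 (adjusted p = 1.8e-06), which is a 33.4-fold rise with a 95% interval of 16.2 to 69.0. SNx 5, SNx 1 and SNx 6 were the highest libraries, at 208, 182 and 182 CPM, and SNx 4 and SNx 11 the lowest, at 32.3 and 30.7 CPM.

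Clu (ENSRNOG00000016460, chromosome 15) was the steadiest of the 3 in control kidneys, with 81.2, 86.7, 85.9, 93.5 and 80.4 CPM in NoOp 1 to NoOp 5. SNx libraries held 527 to 1860 CPM with a median of 1178. No library of one group came near the other, with 2.50 log2 units between the nearest pair. The mean was 10.12 ± 0.67 log2 CPM (SD, n = 12) in SNx and 6.42 ± 0.09 (SD, n = 5) in NoOp. The model of edgeR gave a log2 FC of 3.83 (SE 0.35, adjusted p = 4.3e-07), or 14.2-fold with a 95% interval of 8.84 to 22.9. The upper 6 libraries were SNx 12, SNx 6, SNx 10, SNx 5, SNx 8 and SNx 1, all at 10.47 log2 CPM or above, and the next, SNx 3, was at 9.88. The SD of Clu between SNx rats was 7.71 times that between NoOp rats, a ratio above that of 98.3% of tested genes, whose median ratio was 1.65. The same ratio was 2.98 for Lcn2 and 1.87 for Spp1.

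Spp1 (ENSRNOG00000043451, chromosome 14) had the most counts of the 3 in both groups. NoOp 1 to NoOp 5 held 277, 226, 296, 351 and 493 CPM. SNx libraries held 2457 to 14765 CPM, with a median of 6369. The lowest SNx library, again SNx 11, was 2.32 log2 units above NoOp 5, the highest control. Mean log2 CPM was 12.61 ± 0.79 (SD, n = 12) in SNx and 8.31 ± 0.42 (SD, n = 5) in NoOp, with a log2 FC of 4.44 (SE 0.46, adjusted p = 1.4e-06 by edgeR), or 21.8-fold with a 95% interval of 11.7 to 40.4. Spp1 alone took 0.241% to 1.58% of all counts of an SNx library, and in 5 of the 12 no other tested gene had more counts. This is a share of reads and not a level per length, since gene lengths were not used here. In NoOp its share was 0.0199% to 0.0464%.

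**Figure D1:**
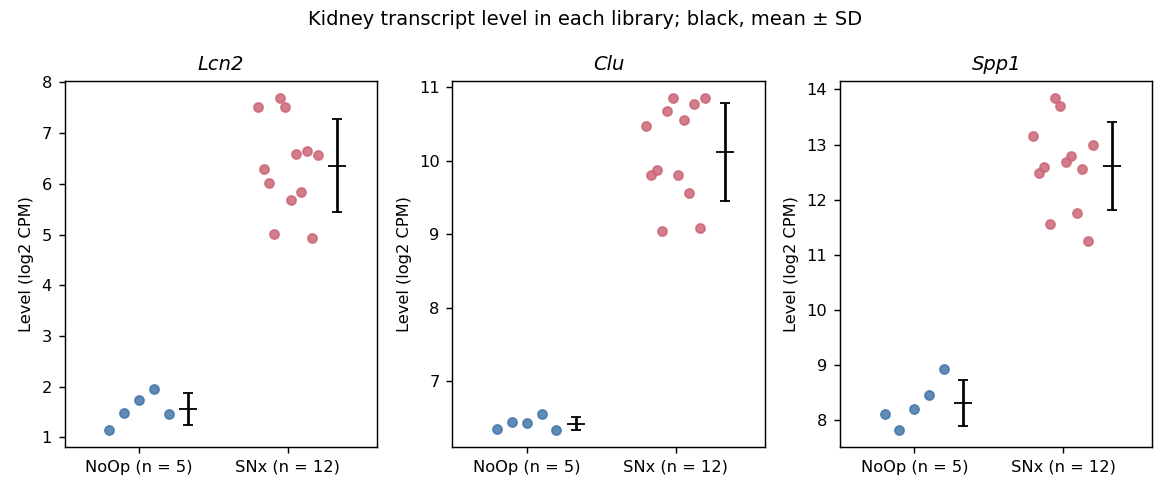
Level of Lcn2, Clu and Spp1 in log2 CPM (vertical axes, which do not start at 0) in each of 5 NoOp and 12 SNx libraries (points, spread sideways for sight only), with mean ± SD in black. All SNx points lie above all NoOp points in each panel, by 2.98, 2.50 and 2.32 log2 units between the nearest points of Lcn2, Clu and Spp1.

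Together the 3 transcripts took 0.0277% to 0.0542% of the counts of a NoOp library (median 0.0355%) and 0.297% to 1.78% of those of an SNx library (median 0.838%). SNx 5 was the highest, at 1.78%, and SNx 11 the lowest of the SNx libraries, still well above any control. The means were 0.893% ± 0.461 (SD, n = 12) and 0.0379% ± 0.0101 (SD, n = 5), a difference of 0.855 percentage points (exact permutation test over samples, two-sided p = 0.00145).

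Their rises were not of one size. Within each library the difference of 2 transcripts on the log2 CPM scale was compared between the groups, which removes any factor common to both. Lcn2 relative to Clu was higher in SNx by 1.10 (exact permutation p = 0.00016, two-sided and the lowest value this design can give, or 0.00048 after adjustment over 3 pairs), and 12 of 12 SNx libraries lay above all controls. Lcn2 relative to Spp1 was higher by 0.50 (exact p = 0.028, adjusted 0.028), with 8 of 12 SNx libraries above all controls. Clu relative to Spp1 changed by -0.61 (exact p = 0.016, adjusted 0.024), with 6 of 12 below all controls. The rise of Lcn2 was thus larger than that of Clu beyond the spread between libraries, whereas the differences that involve Spp1 passed less clearly, and each lost its call when some single controls were left out. Without NoOp 5, the control highest in Spp1, Lcn2 relative to Spp1 differed by 0.32, and without NoOp 2, the lowest, Clu relative to Spp1 differed by -0.48. With only the 6 SNx libraries in the upper range of the numbers in the sample titles, neither passed, at 0.46 for Lcn2 relative to Spp1 and -0.34 for Clu relative to Spp1 (exact permutation, adjusted p = 0.16 and 0.21).

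The second question was whether the transcripts varied together among the SNx rats. They did, and the same few libraries stood at the ends of the range. SNx 5 and SNx 6 were among the 4 highest libraries of all 3 transcripts, and SNx 4 and SNx 11 were the 2 lowest of each. Across SNx rats the highest library exceeded the lowest 6.78-fold for Lcn2, 3.53-fold for Clu and 6.01-fold for Spp1, against 1.77-fold, 1.16-fold and 2.18-fold across NoOp rats. The ranks were not identical. SNx 12 held the most Clu but took place 6 in Lcn2, SNx 10 took place 3 in Clu but 8 in Spp1, and SNx 7 took place 6 in Spp1 but 10 in Lcn2.

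Correlations of log2 CPM across the 12 SNx libraries were tested by permutation for 10 pairs, the 3 transcripts with each other and with Slc3a1 and Col3a1, with adjustment over the 10. Lcn2 and Spp1 gave Pearson's r = 0.92 (permutation p = 0.0001, adjusted 0.0005) and Spearman's rho = 0.85 (p = 0.0011). For Lcn2 and Clu r was 0.88 (permutation p = 0.00024, adjusted 0.00062) and rho 0.80 (p = 0.0029). For Clu and Spp1 r was 0.86 (permutation p = 0.00025, adjusted 0.00062) and rho 0.78 (p = 0.0044). All 3 pairs passed by both measures, and no single library carried them, since r stayed between 0.82 and 0.96 over these pairs when each SNx library was left out in turn. Without the 2 libraries farthest from the median of the first gene, r was 0.85 for Lcn2 and Spp1, 0.75 for Lcn2 and Clu and 0.72 for Clu and Spp1. Spearman's rho was then 0.73, 0.66 and 0.62 (permutation p = 0.021, 0.045 and 0.06 before adjustment), so Clu and Spp1 no longer passed by rank.

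The numbers in the sample titles fall into a lower and an upper range, with 6 SNx libraries in each and all controls in the lower one. What the ranges stand for is not stated. Within the lower range r was 0.96 for Lcn2 and Spp1, 0.97 for Lcn2 and Clu and 0.99 for Clu and Spp1, and within the upper range 0.82, 0.96 and 0.87. In the same order Spearman's rho was 0.89, 0.77 and 0.94 in the lower range and 0.49, 0.77 and 0.83 in the upper. The 3 pairs did not pass within the upper range (exact permutation, adjusted p = 0.14, 0.069 and 0.069). Mean levels of the 3 transcripts did not differ detectably between the ranges. The largest difference was that of Lcn2, 6.67 against 6.04 log2 CPM (two-sided exact permutation test, p = 0.25, adjusted 0.36).

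**Figure D2:**
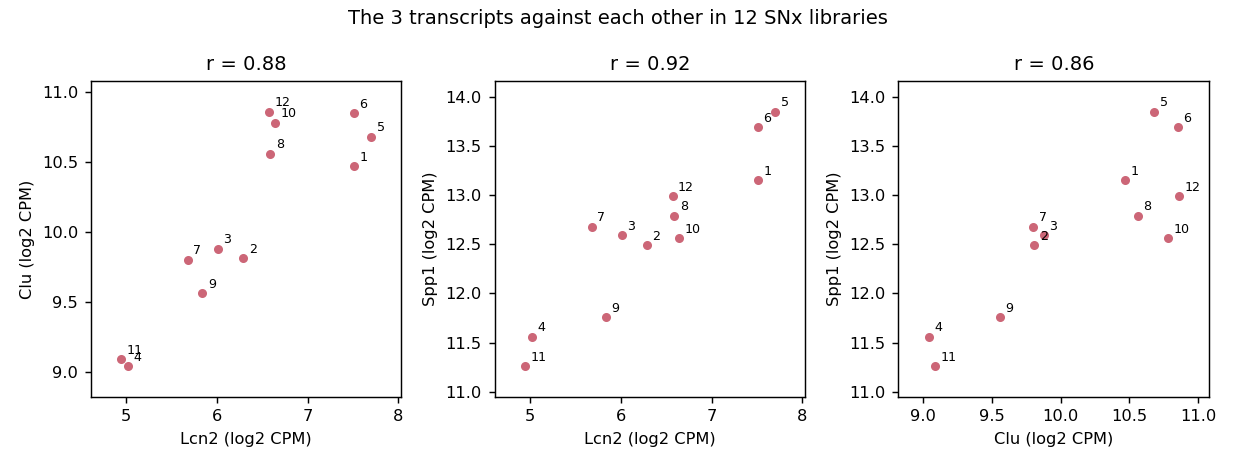
Lcn2, Clu and Spp1 plotted against each other in log2 CPM for the 12 SNx libraries (points, with library numbers). Pearson's r is 0.88 for Lcn2 and Clu, 0.92 for Lcn2 and Spp1 and 0.86 for Clu and Spp1, with SNx 4 and SNx 11 at the low end of every panel.

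Slc3a1 (ENSRNOG00000007006, chromosome 6) moved the other way. It was lower in SNx, at 9.73 ± 1.27 log2 CPM (SD, n = 12) against 11.87 ± 0.14 (SD, n = 5), with a log2 FC of -1.73 (SE 0.46, adjusted p = 0.0044 by edgeR). SNx 11, SNx 4 and SNx 9 kept the most Slc3a1, at 11.22, 11.12 and 11.07 log2 CPM, and they held the least Spp1 and the least Clu. SNx 1 and SNx 5, at 7.25 and 8.10, held the least Slc3a1 and the most Lcn2. Across SNx libraries r with Slc3a1 was -0.88 for Lcn2 (permutation p = 9e-05, adjusted 0.0005), -0.81 for Spp1 (p = 0.0015, adjusted 0.0031) and -0.75 for Clu (p = 0.0057, adjusted 0.0096). Spearman's rho was -0.90 (p = 0.00018), -0.83 (p = 0.0016) and -0.67 (p = 0.02). Within the lower range of title numbers r was -0.91, -0.81 and -0.84 for Lcn2, Spp1 and Clu, and within the upper range -0.76, -0.73 and -0.79. With 6 libraries in a range, none of these 6 values passed (exact permutation, adjusted p = 0.066, 0.090 and 0.075 in the lower range and 0.18, 0.21 and 0.17 in the upper). Without the 2 libraries farthest from the median of the first gene, r was -0.85 for Lcn2, -0.72 for Spp1 and -0.62 for Clu, the last no longer past the threshold (adjusted p = 0.095).

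Col3a1 (ENSRNOG00000003357, chromosome 9) was upregulated like the 3 transcripts, at 9.71 ± 0.69 log2 CPM (SD, n = 12) in SNx against 7.15 ± 0.20 (SD, n = 5) in NoOp (log2 FC 2.74, SE 0.39, adjusted p = 2.8e-05 by edgeR), yet its order among the SNx libraries was another. SNx 1 held by far the most, at 11.52 log2 CPM, followed by SNx 12 at 10.05, and SNx 8 held the least, at 8.62. SNx 6, among the highest in all 3 transcripts, took place 10 of 12 in Col3a1. Across the 12 libraries r with Col3a1 was 0.31 for Lcn2 (permutation p = 0.33, adjusted 0.42), 0.25 for Spp1 (p = 0.43, adjusted 0.48) and 0.14 for Clu (p = 0.70, adjusted 0.70). Spearman's rho was 0.17 (p = 0.60), 0.29 (p = 0.37) and 0.20 (p = 0.53). None of the 3 passed, but 12 libraries leave wide 95% intervals by Fisher's transformation, from -0.32 to 0.75 for Lcn2, -0.37 to 0.72 for Spp1 and -0.47 to 0.66 for Clu. Without the 2 libraries farthest from the median of the first gene r was 0.26, 0.28 and 0.00 for Lcn2, Spp1 and Clu. SNx 1 decided the value for Lcn2, which was -0.02 without it. Leaving out SNx 1 also lowered r to 0.14 for Spp1 and to 0.001 for Clu. Within the lower range r was 0.34, 0.13 and 0.21 for Lcn2, Spp1 and Clu, and within the upper range -0.13, 0.15 and 0.05. Whether the correlations with Slc3a1 and with Col3a1 differ from each other was not tested.

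**Figure D3:**
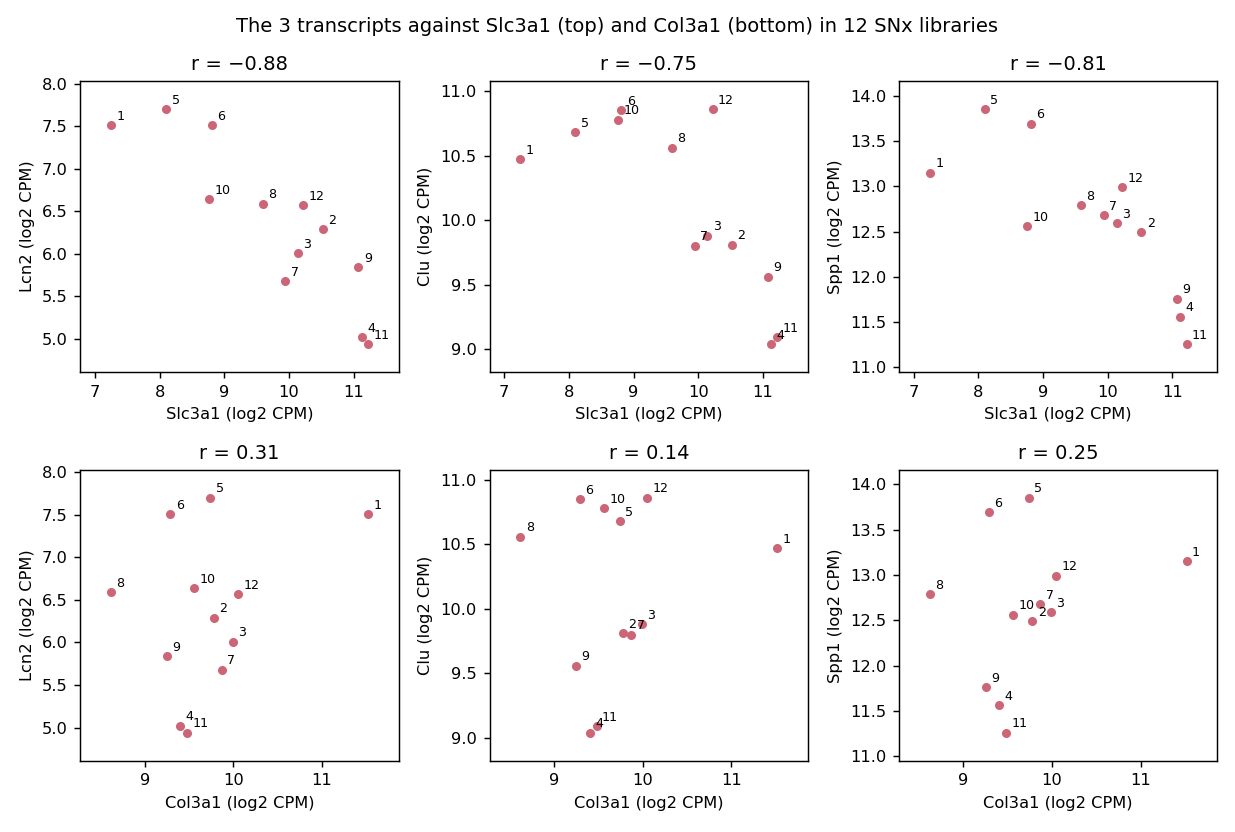
Lcn2, Clu and Spp1 (vertical axes) against Slc3a1 (top row) and Col3a1 (bottom row), all in log2 CPM, in the 12 SNx libraries (points, with library numbers). The top row falls from left to right, with r = -0.88, -0.75 and -0.81, and the bottom row shows r = 0.31, 0.14 and 0.25 with SNx 1 far to the right.

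Depth was set beside these levels, and no relation with it passed after adjustment. Among SNx libraries, r with the total count was -0.60 for Lcn2 (permutation p = 0.041, adjusted over 5 genes 0.068), -0.64 for Clu (p = 0.029, adjusted 0.068), -0.51 for Spp1 (p = 0.091, adjusted 0.11), 0.69 for Slc3a1 (p = 0.015, adjusted 0.068) and -0.20 for Col3a1 (p = 0.54, adjusted 0.54). With log2 total counts regressed out, an alternative added after the data were seen, r between the transcripts was 0.80 for Lcn2 and Clu, 0.90 for Lcn2 and Spp1 and 0.81 for Clu and Spp1 (adjusted permutation p = 0.0089, 0.0012 and 0.0086). With Slc3a1 it was -0.80 for Lcn2 and -0.73 for Spp1 (adjusted permutation p = 0.0086 and 0.018) and -0.54 for Clu, which no longer passed (adjusted p = 0.12). The paper's methods report RNA integrity estimates that varied widely between its samples. Integrity of the single libraries was not examined here, and its relation to these levels and correlations was not tested.

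Such correlations were common in these kidneys. Among the 13184 other genes whose mean level reached 1 log2 CPM, 42.4% had a Spearman rho of at least 0.7 in size with Lcn2 across the 12 SNx libraries, 28.1% with Spp1 and 19.5% with Clu. These genes share the same libraries and their depth, so the values are a description. In order of rho with Lcn2, Spp1 was gene 1078 and Clu gene 1631. In order of rho with Spp1, Lcn2 was gene 344 and Clu gene 869, and in order of rho with Clu, Lcn2 was gene 300 and Spp1 gene 528. The 3 transcripts were therefore alike, but many genes followed each of them more closely. Slc3a1 lay among the lowest 6.32% of genes for Lcn2, 4.38% for Spp1 and 12.9% for Clu.

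**Figure D4:**
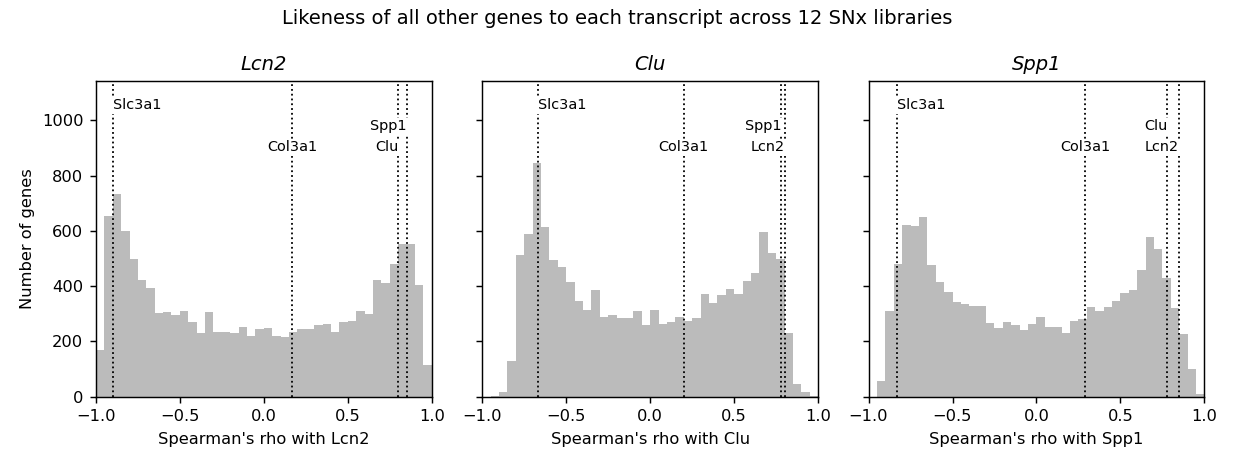
Number of genes (vertical axis) by Spearman's rho with Lcn2, Clu or Spp1 (horizontal axis) over the 12 SNx libraries, for 13184 other genes in each panel, with dotted lines at the other 2 transcripts, Slc3a1 and Col3a1. Genes pile up towards both ends, most of all for Lcn2, where 42.4% had a rho of at least 0.7 in size.

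The named genes most like Lcn2 were S100a11, a calcium-binding partner of annexins, and Clip2, a microtubule-binding protein (rho 0.99 each), then P2ry2, a receptor for extracellular ATP and UTP, Dtx3l, a ubiquitin ligase, and Plp2, a membrane proteolipid (0.98 each). All 5 were called higher in SNx by edgeR, with log2 FC between 0.98 and 1.53. Least like it were Gstz1, an enzyme of tyrosine breakdown (rho -0.99), Hpn, the serine protease hepsin, and Vill, a villin relative (-0.98 each), all lower in SNx. Spp1 was most like Dcakd, a kinase-like protein, and Racgap1, which acts in cell division (0.98 each), Tapbpl, which edits peptides on MHC class I (0.97), Tnfrsf12a, the receptor of the cytokine TWEAK, and Lrat, which esterifies retinol (0.96 each), and least like Cdip1 (-0.95), the riboflavin transporter gene Slc52a3 (-0.94) and Fjx1 (-0.92). Clu was most like Tekt1, a protein of cilia, and Kif23, a kinesin of dividing cells (0.94 each), Gltp, a glycolipid transfer protein, Galnt12, which starts O-glycans, and Cntf, a neurotrophic cytokine (0.92 each), and least like Rarres1 (-0.86), Tsku (-0.85) and Mlc1 (-0.83). No gene was named for more than 1 of the 3. Symbols were known for 2007 genes only, so the closest genes of all may lack a name here.

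Receptors and binding partners of the 3 proteins did not move as one. Of 20 on the list, 6 had a known identifier and were tested, with 4 higher and 2 lower in SNx (30.3% and 27.7% of all tested genes) and a median log2 FC of 2.40, against 0.02 over all tested genes. Symbols came only from sheets of the study that list genes it had selected on these samples. Counts of this and the following lists are therefore not independent evidence of a direction or of a high rho. Of the 20 genes highest in rho across SNx, 8 had a symbol for Lcn2, 14 for Spp1 and 9 for Clu, while symbols were known for 2007 genes only. Cd44, a receptor of osteopontin and hyaluronan, rose by a log2 FC of 2.76 (SE 0.25, adjusted p = 4.1e-07 by edgeR), and its rho across SNx was 0.97 with Lcn2 and 0.81 with Spp1. Itgb7, an integrin chain of lymphocytes, rose by 3.07 (SE 0.24), but its rho was -0.43 with Lcn2 and -0.32 with Spp1. Trem2, a myeloid receptor that can bind clusterin, rose by 3.69 (SE 0.32), and Lrp8, an apolipoprotein receptor that also binds clusterin, by 2.03 (SE 0.23). Lrp2 (megalin), which takes filtered lipocalin 2 back into proximal tubules, fell, with a log2 FC of -1.19 (SE 0.33, adjusted p = 0.0053 by edgeR). So did Cubn (cubilin), its partner in the uptake of filtered protein, with -0.81 (SE 0.21, adjusted p = 0.0033). Across SNx the rho with Lcn2 was -0.89 for Lrp2 and -0.64 for Cubn. The summed level of the 6 genes, of which Lrp2 had the most counts, was 1317 to 6516 CPM in SNx and 7990 to 9783 CPM in NoOp, with a rho of -0.87 with Lcn2.

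Among proteases that cut osteopontin and their inhibitors, 7 of 11 were tested, with 5 higher, 1 lower (30.3% and 27.7% of all tested genes) and a median log2 FC of 2.56. Their summed level, led by Timp3, overlapped between the groups, with 280 to 647 CPM in SNx (median 397) and 441 to 589 CPM in NoOp (median 540), and its rho across SNx was -0.43 with Lcn2, -0.64 with Clu and -0.43 with Spp1. Timp1, an inhibitor of metalloproteinases, rose by 2.93 (SE 0.31, adjusted p = 2e-06 by edgeR), and Mmp12, the elastase of macrophages, by 5.28 (SE 0.71, adjusted p = 1.7e-05). Mmp7, a metalloproteinase of injured epithelium, had 0 to 2 counts in the NoOp libraries and 38 to 664 in SNx, at least 108-fold higher against a floor of 3 counts per NoOp library. Timp3, an inhibitor kept in matrix and named here after its value was seen, fell by 1.24 on the log2 scale (SE 0.23). F2, the gene of prothrombin and also named afterwards, had a log2 FC of -1.21 and did not pass (adjusted p = 0.059 by edgeR). Of the 7, none reached a rho of 0.7 with any of the 3 transcripts across SNx, the highest being 0.69 with Spp1, but F2 and Timp3 ran against Lcn2, with a rho of -0.87 and -0.92.

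Most of the other transcripts listed as injury markers of tubules rose with them, though bulk RNA does not show which cells made them. Of 41 on the list, 25 were tested, with 21 higher, 1 lower, 3 that did not pass and a median log2 FC of 1.32 (30.3% of all tested genes were higher and 27.7% lower), below the log2 FC of each of Lcn2, Clu and Spp1. Fgb, the beta chain of fibrinogen, rose by 3.93 (SE 0.34), Tnfrsf12a by 2.24 (SE 0.23) and Anxa1, an annexin that dampens inflammation, by 1.70 (SE 0.19). Tff3, a trefoil peptide of tubules named after its value was seen, fell by 2.59 on the log2 scale (SE 0.73, adjusted p = 0.0063 by edgeR), and Cst3 (0.21), S100a6 (0.31) and Pigr (-0.02), also named afterwards with their log2 FC, did not pass. Across SNx, 14 of the 25 had a rho of at least 0.7 with Lcn2, 12 with Spp1 and 9 with Clu. Beside these stand 19.1%, 12.3% and 9.97% of the 13184 other genes, with or without a symbol, so the 2 sides were not drawn alike. Their summed level was 2818 to 5244 CPM in SNx and 2225 to 2692 CPM in NoOp, and its rho was 0.98 with Lcn2, 0.84 with Spp1 and 0.80 with Clu.

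Signalling genes of NF-kB, STAT3 and C/EBP, whose letters were searched before Lcn2, were all higher among the 11 of 23 that were tested, beside 30.3% of all tested genes, with a median log2 FC of 1.62. Tnfrsf1b, a receptor of tumour necrosis factor, rose by 1.62 (SE 0.15), Relb, a subunit of NF-kB, by 1.31 (SE 0.15), and Tnfrsf1a, the other receptor of tumour necrosis factor, by 1.14 (SE 0.14). Of the 11, 9 had a rho of at least 0.7 with Lcn2, 7 with Spp1 and 4 with Clu, beside the same 19.1%, 12.3% and 9.97% of all other genes. Of a list of 15 stress-induced chaperones and regulators of clusterin, 4 were tested, the cytokine gene Tgfb1 and the AP-1 subunits Fosl1, Junb and Fos, and no chaperone was among them. All 4 were higher (median log2 FC 1.76), beside 30.3% of all tested genes. Tgfb1, the cytokine TGF-beta 1, rose by 1.61 (SE 0.18) and Junb, an AP-1 subunit, by 1.15 (SE 0.22), while Fosl1, also of AP-1, had 0 to 3 counts in NoOp and 16 to 115 in SNx, at least 21.6-fold higher against 3 counts per library. Their summed level had a rho of 0.94 with Lcn2, 0.90 with Spp1 and 0.83 with Clu.

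Markers of cell types were set beside the 3 transcripts. Proximal tubule markers fell in 11 of 11 tested of 17, beside 27.7% of all tested genes, with a median log2 FC of -1.42, among them Dpp4 (-1.25), Aqp1 (-1.69) and Cubn, and under scaling by library size alone 9 of the 11 passed. Their summed level was 23765 to 28051 CPM in NoOp and 1850 to 17563 CPM in SNx, led by Lrp2, and its rho across SNx was -0.91 with Lcn2, -0.85 with Spp1 and -0.71 with Clu. SNx 1, with the second highest Lcn2, held the least, and SNx 11, with the lowest Lcn2, held the most. Macrophage and monocyte markers rose in 11 of 11 tested of 15 (30.3% of all tested genes, median log2 FC 2.01), among them Mrc1 (2.85), Trem2 (3.69) and Gpnmb (4.48), and their sum, led by Csf1r, was 348 to 951 CPM in SNx and 99.9 to 151 CPM in NoOp. Its rho was 0.49 with Lcn2, 0.53 with Spp1 and 0.29 with Clu. Among all 13184 other genes, 19.1% had a rho of at least 0.7 with Lcn2, 12.3% with Spp1 and 9.97% with Clu. Of the 11 macrophage and monocyte markers, 4 had such a rho with Lcn2, 3 with Spp1 and 0 with Clu. With Lcn2 these were Cd14 (0.90), Trem2 (0.79), Gpnmb (0.75) and Cd68 (0.71), and with Spp1 Cd14 (0.85), Trem2 (0.73) and C1qb (0.70), of which Cd14, Cd68 and C1qb are named after their values were seen. Fibroblast markers rose in 4 of 4 tested of 11 (30.3% of all tested genes, median log2 FC 3.18), among them Col3a1, Fn1 (2.02) and Col1a1 (3.63). Their sum, led by Col1a1, was 1368 to 10778 CPM in SNx and 386 to 486 CPM in NoOp, with a rho of 0.45, 0.49 and 0.25 with Lcn2, Spp1 and Clu. Of the 4, 1 had a rho of at least 0.7 with Lcn2, 0 with Spp1 and 1 with Clu, beside the same 19.1%, 12.3% and 9.97%. For Lcn2 and Clu this gene was Postn (0.78 and 0.73), a matrix protein gene named after its values were seen. None of the markers tested in these lists was at 0 throughout. Of distal tubule markers only Trpv5, a calcium channel, was tested, and it rose (log2 FC 1.52). None of 10 neutrophil markers had an identifier here, so neutrophils, which carry Lcn2 in their granules, were not examined. The part of any of these cell types in the rise of Lcn2, Clu and Spp1 was not tested.

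**Figure D5:**
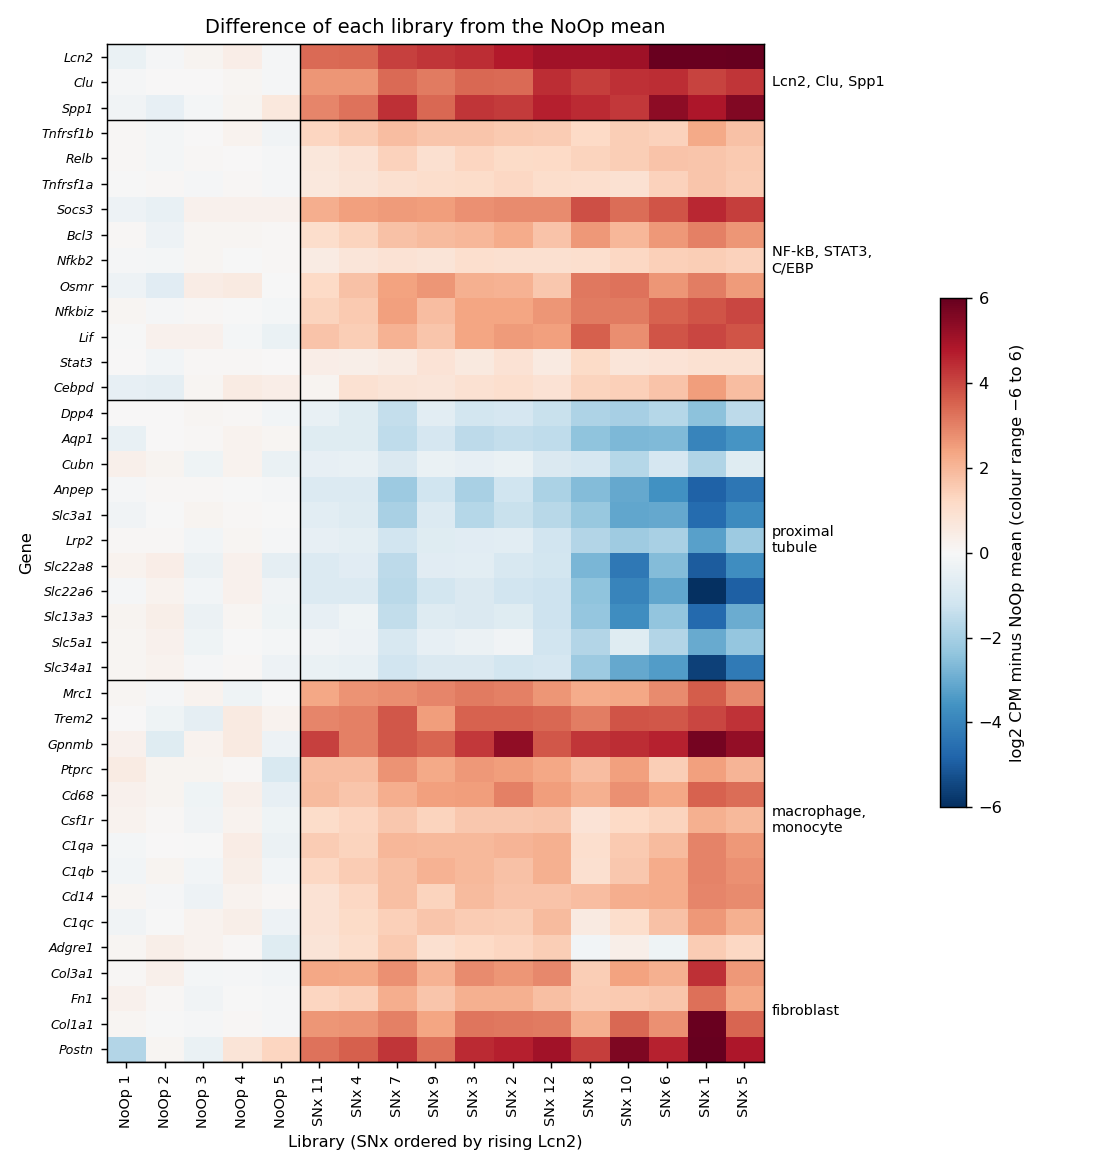
Difference in log2 CPM from the NoOp mean (colour, from -6 to 6, with values beyond shown in the end colours) for Lcn2, Clu and Spp1 and for all tested genes of 4 lists (rows) in the 17 libraries (columns, the SNx libraries ordered by rising Lcn2). Red in the first rows deepens to the right, where Lcn2 reaches 7.70 log2 CPM in SNx 5, while the 11 proximal tubule markers turn blue, most in SNx 1.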

How the data were processed

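Kidney RNA of 12 SNx and 5 NoOp rats was analysed. The submitters' processing notes name Salmon, limma and rn6. The authors quantified reads against the Rn6 transcriptome, summarised transcripts to genes with tximport and deposited expected counts per gene, already whole, so that rounding changed 0 values. For 13318 genes the authors also deposited log2 values after limma's voom transformation, used only as an alternative. Replicates are separate samples in the labels, and nothing further is stated on their independence. Libraries of one group differed by more than counting noise (chi-square per degree of freedom at least 21.9 in SNx and 26.1 in NoOp).

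Counts were tested in R 4.3.3 with edgeR 4.0.16 (filterByExpr, TMM, glmQLFit and glmQLFTest). P-values were two-sided and adjusted by Benjamini and Hochberg over 15438 genes, with calls at FDR < 0.05. The procedure was tested on simulated data. Levels are log2 CPM with a prior count of 2. Each log2 FC is edgeR's model estimate and need not equal the difference of the mean log2 CPM, which was 3.70 for Clu and -2.14 for Slc3a1. CPM is not scaled to gene length. Each standard error was taken as the size of the log2 FC over the root of its F statistic. Correlations used 100000 permutations. Other settings were voom and limma 3.58.1 on counts or deposited values, DESeq2 1.42.0, scaling by library size alone or by RLE, the gene filter removed or raised to 10 counts in each library, a prior count of 0.5, either range of title numbers, and each library left out. Named genes were Lcn2, Clu, Spp1, Slc3a1 and Col3a1, all receptors with an identifier, the 3 smallest p-values of each other list, and per transcript the 5 highest and 3 lowest Spearman rho among genes with a symbol. The members and lists were chosen with earlier results of these data known. Figures used Python 3.11.15 and matplotlib 3.10.9.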

Additional observations from a re-analysis of the deposited data

Results flagged for a closer look

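Among the 5 NoOp libraries, 53 named genes were examined for a library far from the other 4 (gap over range above 0.71), where chance alone would give about 2.65, or 1 in 20. The 5 found were none of Lcn2, Clu, Spp1, Slc3a1 or Col3a1. NoOp 1 was low in Aqp1, a water channel of proximal tubules, at 10.99 log2 CPM against 11.49 to 11.68 in the others, and low in Rarres1, at 4.62 against 5.44 to 5.66. NoOp 5 was high in Clip2, at 6.59 against 6.28 to 6.36. NoOp 4 was low in Lrp8, at 1.40 against 1.78 to 1.92, and was the only control with any count of Mmp7 (2 counts, -2.99 log2 CPM against -3.75).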

How the results depend on the processing

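The rises of Lcn2, Clu and Spp1 passed under all 26 alternatives, with log2 FC of 4.91 to 5.18, 3.76 to 3.90 and 4.30 to 4.63 when each library was left out. In the lower and upper range of title numbers they were 5.40 and 4.60 for Lcn2, 3.82 and 3.83 for Clu and 4.72 and 4.09 for Spp1. Genes called numbered 7914 to 9438 with a library left out. Under library size alone 74.6% of calls were higher in SNx, against 52.2% with TMM, and the median log2 FC of all tested genes was 0.23 in place of 0.02. Of the 6 correlations among the transcripts and with Slc3a1, none passed within the 6 libraries of the upper range (r = 0.96 for Lcn2 and Clu, 0.82 for Lcn2 and Spp1, 0.87 for Clu and Spp1, and -0.76, -0.79 and -0.73 for Lcn2, Clu and Spp1 with Slc3a1). In the lower range those with Slc3a1 did not pass (-0.91, -0.84 and -0.81), and fewer samples are part of that setting. Clu with Slc3a1 also lost its call without the 2 farthest libraries (-0.62) and with depth regressed out (-0.54). Lcn2 with Col3a1 turned to -0.13 in the upper range and ran from -0.02 to 0.43 with a library left out, the lowest without SNx 1. Slc3a1 with Col3a1 (r = -0.50) turned to 0.05 in the upper range and 0.12 without the 2 farthest, and ran from -0.60 to 0.01, the highest without SNx 1. Clu with Col3a1 was -0.0042 with depth regressed out. For the unequal rises, Lcn2 relative to Spp1 was 0.46 in the upper range, where it did not pass (adjusted p = 0.16), and 0.32 to 0.60 with a library left out, where it did not pass without NoOp 1 or NoOp 5. Clu relative to Spp1 was -0.34 in the upper range, where it did not pass (adjusted p = 0.21), and -0.79 to -0.48 with a library left out, where it did not pass without NoOp 1 or NoOp 2. The cause of these changes was not tested. No paired analysis was possible because the labels give no replicate numbers that SNx and NoOp rats share. Lcn2 had the fewest counts of the 3 transcripts in the controls, 60 to 148, and whether depth limits its values there was not tested.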
